A study of Bos taurus with 15 samples.

Results

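Notch signalling genes were followed in bovine granulosa cells (GC), which line the follicle wall and make estradiol, on 15 Bovine Gene 1.0 ST arrays. The genes are the ligands JAG1, JAG2 and DLL4, the receptors NOTCH1, NOTCH2 and NOTCH3, and the target genes HES1, HEY1, HEY2 and HEYL. A transcript cluster, meaning all probes that read 1 locus, was taken when its only gene symbol in the platform annotation was 1 of these 10. Each symbol had exactly 1 cluster, so that 10 of the 26773 clusters with deposited values are described. The gene ID of all 10 carries the same symbol in the bovine RefSeq annotation.

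The GC came from bovine follicles under 6 mm, pooled after aspiration from abattoir ovaries and frozen before use, and all were kept for 8 days without serum in medium with FSH (20 ng/ml), R3 IGF-1 (50 ng/ml), insulin and androstenedione (2 µM). Groups of 5 cultures received 30 mM sodium L-lactate, 30 mM NaCl as the vehicle control for sodium, or neither (untreated). The breed and age of the animals are not in the labels, and pooled cells in culture stand for no single follicle. It is not stated whether cultures of a group began from different pools, so the p-values cover the spread between these samples, which may be technical.

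Notch signalling passes between touching cells. A ligand of the Jagged or Delta-like family on one cell binds a Notch receptor on its neighbour, the receptor is cut by ADAM proteases and then by gamma-secretase, and the freed intracellular part joins the DNA-binding protein RBPJ and a Mastermind coactivator in the nucleus to switch on HES and HEY genes, which code for transcriptional repressors. In the mouse ovary, JAG1 and NOTCH2 act between oocytes and GC during follicle formation and growth, whereas DLL4 is best known from endothelium and NOTCH3 from the muscle and pericyte layer of vessels.

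Values are the deposited log2 signals. Differences are between group means on this log2 scale, with the standard error (SE) from 1 limma fit over the 15 arrays and p-values adjusted by Benjamini-Hochberg over all clusters. A gene is said to have risen or fallen at an adjusted p under 0.05. It is called differentially expressed if its fold change also exceeded 1.5 in either direction, which is 0.58 on the log2 scale. Signals of different genes are not compared, because each depends on its probes. The clusters of 4 genes, JAG1, NOTCH2, HES1 and HEY2, had a mean log2 signal of at least 5 over the arrays, and the other 6 lay below it, where small differences are hard to measure. Detection calls were not analysed here.

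Marker genes were listed to set the label of the cells beside the data. A signal of 5 is no limit of detection and each signal depends on its probes, so these counts describe the arrays and do not measure how many cells of a type were present. Of 13 granulosa markers, 12 had a mean signal of at least 5, among them FOXL2, INHA, CYP19A1 and FSHR. Of 10 endothelial markers only VWF did, with PECAM1 at 3.27 and CDH5 at 3.40, and of 6 oocyte markers none did. Of 8 pericyte and smooth muscle markers, PDGFRB, MCAM and CSPG4 did and RGS5 had 2.55. Among the theca markers INSL3 reached 7.26 and CYP17A1 3.89, and of 7 leukocyte markers only CD68 passed this level. In RNA from whole cultures, fewer cells of a type and less RNA per cell cannot be told apart.

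**Figure D1:**
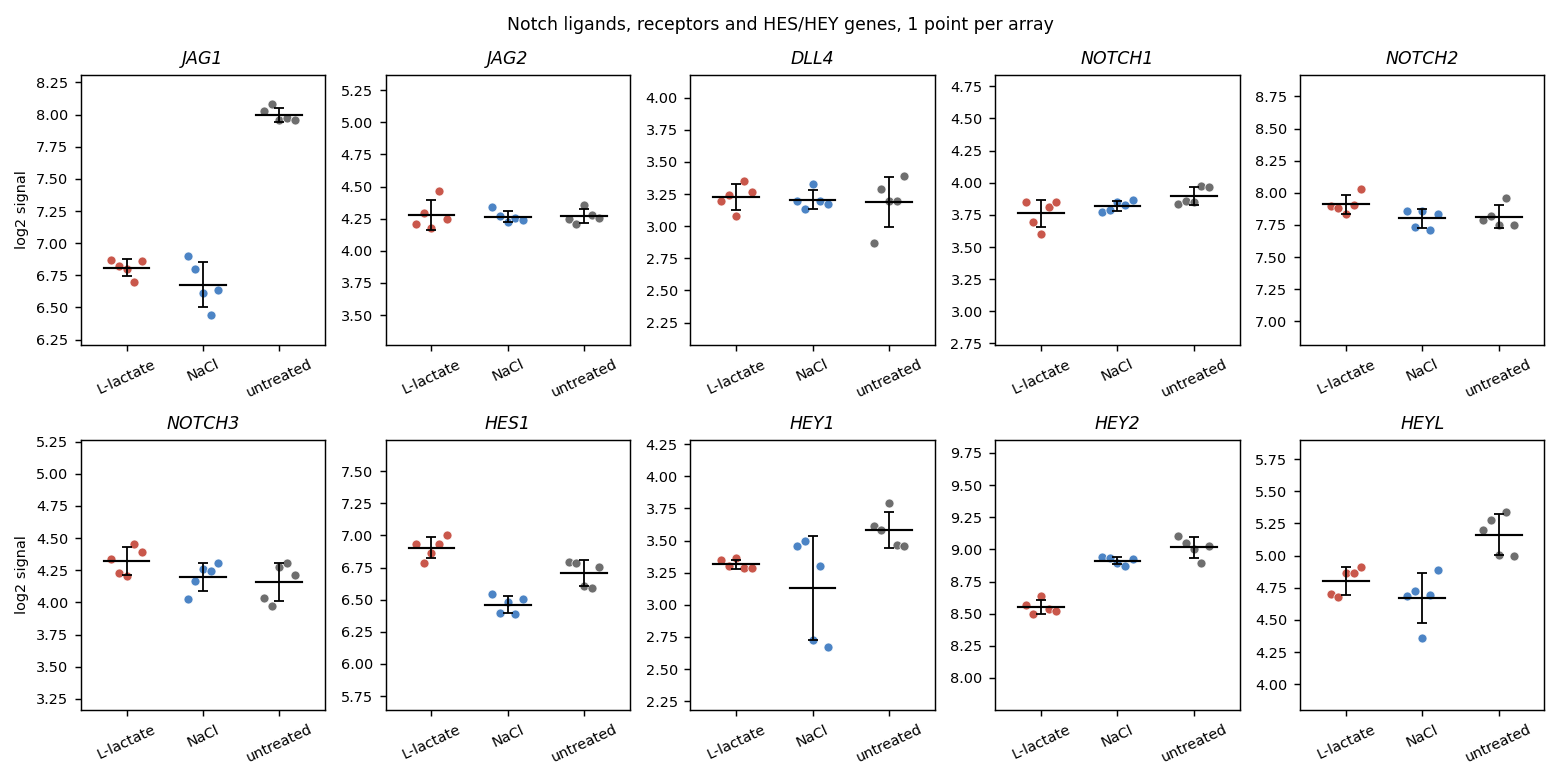
Log2 signal (vertical axes, each spanning 2.1 units) of the 10 genes on the 15 arrays, with 1 point per array, a line at the group mean and bars of 1 SD (n = 5 per group). JAG1 is lower in both salt-treated groups than in untreated cells with no overlap, HES1 is highest with L-lactate and lowest with NaCl, and HEY2 is lowest with L-lactate.

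The ligand JAG1 was lower after either salt, and it was the only 1 of the 10 genes to be called differentially expressed in any comparison. Its log2 signal read 6.87, 6.82, 6.80, 6.70 and 6.86 on the L-lactate arrays and 6.90, 6.80, 6.61, 6.44 and 6.63 on the NaCl arrays. On the untreated arrays it read 8.03, 8.08, 7.96, 7.97 and 7.96. Every salt-treated array thus lay at least 1.06 below every untreated array, and the L-lactate and NaCl arrays overlapped. JAG1 averaged 6.81 ± 0.07 in L-lactate treated, 6.68 ± 0.18 in NaCl treated and 8.00 ± 0.05 in untreated GC (SD, n = 5 each).

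JAG1 fell by 1.19 in L-lactate treated against untreated GC (SE 0.07, 95% interval -1.34 to -1.04, adjusted p = 6.7e-09 by limma), which is 2.28-fold. It fell by 1.32 in NaCl treated against untreated GC (SE 0.07, 95% interval -1.47 to -1.17, adjusted p = 2.6e-08), which is 2.50-fold. These comparisons share the untreated arrays. By size of decrease JAG1 ranked 53 of 26773 clusters for L-lactate and 27 for NaCl against untreated cells. Between L-lactate and NaCl treated GC the difference was 0.13 (SE 0.07, 95% interval -0.01 to 0.28, adjusted p = 0.21), so that the interval allowed a JAG1 signal up to 1.22-fold higher with L-lactate. Single NaCl arrays moved this difference either way, to 0.19 (adjusted p = 0.040) without NaCl replicate 1 and to 0.076 (adjusted p = 0.46) without NaCl replicate 4.

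INSL3, a peptide hormone gene of theca cells, moved with JAG1. It averaged 7.01 ± 0.31 with L-lactate, 7.06 ± 0.25 with NaCl and 7.70 ± 0.13 in untreated GC (SD, n = 5 each), and differed from untreated GC by -0.69 (adjusted p = 0.0015 by limma) with L-lactate and by -0.64 (adjusted p = 0.0072) with NaCl. CYP17A1, the other theca marker, differed from untreated GC by 0.04 with L-lactate and by -0.14 with NaCl (adjusted p = 0.89 and 0.67). The mean of both markers ranged from 5.13 to 5.82 on the L-lactate, from 5.24 to 5.66 on the NaCl and from 5.61 to 6.20 on the untreated arrays. The study's methods state that aspiration takes cells of the granulosa with hardly any from the theca. The part of theca cells in the JAG1 difference was not tested.

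JAG2 and DLL4, the other ligands, passed no test. JAG2 ranged from 4.17 to 4.47 (median 4.25) with L-lactate, from 4.22 to 4.34 (4.26) with NaCl and from 4.20 to 4.36 (4.26) in untreated GC. Its differences were 0.01 for L-lactate against NaCl (95% interval -0.10 to 0.12), 0.01 for L-lactate against untreated (-0.10 to 0.12) and -0.0031 for NaCl against untreated (-0.11 to 0.11). A change of JAG2 signal by the fold threshold lies outside all 3 intervals, whereas the decrease of JAG1 was past it after both salts.

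DLL4 ranged from 3.08 to 3.35 (median 3.24) with L-lactate, from 3.13 to 3.33 (3.20) with NaCl and from 2.87 to 3.39 (3.20) in untreated GC. Its group means lay within 0.04 of each other (adjusted p from 0.78 to 0.93 by limma), and the untreated array at 2.87 was the lowest of all 15. The mean of the 10 endothelial markers per array was 3.54 to 3.60 with L-lactate, 3.54 to 3.75 with NaCl and 3.59 to 3.68 in untreated GC. Single markers went both ways. With L-lactate against untreated GC, VWF rose by 0.57 (adjusted p = 1.6e-06 by limma). KDR fell by 0.51 (adjusted p = 2.8e-05) and CLDN5 by 0.22 (adjusted p = 0.010), both below a mean signal of 5. The other 7 passed no test, and 27.1% of all clusters had an adjusted p under 0.05 in this comparison. With NaCl against untreated GC only VWF passed, with a rise of 0.25 (adjusted p = 0.0067), where 11.9% of all clusters passed. Between the salts, VWF was higher by 0.31 with L-lactate (adjusted p = 6.6e-04 by limma) and KDR lower by 0.30 (adjusted p = 0.0033). The other 8 markers passed no test there, where 22.2% of all clusters passed.

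The 3 receptor genes differed little between the groups, and none of them passed the test in any comparison. NOTCH2, the receptor known from mouse GC, read 7.90, 7.88, 7.84, 7.91 and 8.03 on the L-lactate arrays, 7.86, 7.74, 7.86, 7.71 and 7.84 on the NaCl arrays and 7.79, 7.82, 7.75, 7.96 and 7.75 on the untreated arrays. The ranges of all 3 groups overlapped. NOTCH2 averaged 7.91 ± 0.07 with L-lactate, 7.80 ± 0.07 with NaCl and 7.81 ± 0.09 in untreated GC (SD, n = 5 each), a difference of 0.11 between L-lactate and NaCl (SE 0.05, 95% interval 0.0031 to 0.22, adjusted p = 0.15 by limma) and of -0.01 between NaCl and untreated (adjusted p = 0.91). Against untreated GC the difference with L-lactate was 0.10 (adjusted p = 0.19). Without untreated replicate 4, the array at 7.96, it was 0.13 (adjusted p = 0.046), and without L-lactate replicate 5, the array at 8.03, it was 0.067 (adjusted p = 0.40).

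NOTCH1, a receptor of many tissues, averaged 3.76 ± 0.11 with L-lactate, 3.82 ± 0.04 with NaCl and 3.90 ± 0.07 in untreated GC (SD, n = 5 each). The difference between L-lactate treated and untreated GC was -0.14 (SE 0.05, adjusted p = 0.059 by limma), and an L-lactate array at 3.85 lay inside the untreated range of 3.84 to 3.98. It had an adjusted p of 0.041 both without L-lactate replicate 1 and without L-lactate replicate 5, each with a difference of -0.16, and of 0.048 with the replicate number as a block. Without L-lactate replicate 3 the difference was -0.096 (adjusted p = 0.14), and the 5 other alternatives that leave out no single replicate gave adjusted p from 0.11 to 0.16. NOTCH3 averaged 4.32 ± 0.11 with L-lactate, 4.20 ± 0.11 with NaCl and 4.16 ± 0.15 in untreated GC, and its largest difference, 0.16 between L-lactate and untreated, had an adjusted p of 0.13. The mean of the 8 pericyte and smooth muscle markers lay at 4.51 to 4.55 on the L-lactate arrays. It lay at 4.65 to 4.75 on the NaCl and 4.72 to 4.81 on the untreated arrays. With L-lactate against untreated GC, MCAM, KCNJ8, ABCC9 and MYH11 fell, where 13.7% of all clusters fell. RGS5, PDGFRB, CSPG4 and DES passed no test in this comparison. Among the markers that fell, only MCAM had a mean signal of at least 5. Between the salts, MCAM, KCNJ8 and ABCC9 were lower with L-lactate, where 11.5% of all clusters fell, and the other 5 passed no test. ABCC9 alone fell with NaCl against untreated GC, where 5.81% of all clusters fell. The part of such cells in the NOTCH3 values was not tested.

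**Figure D2:**
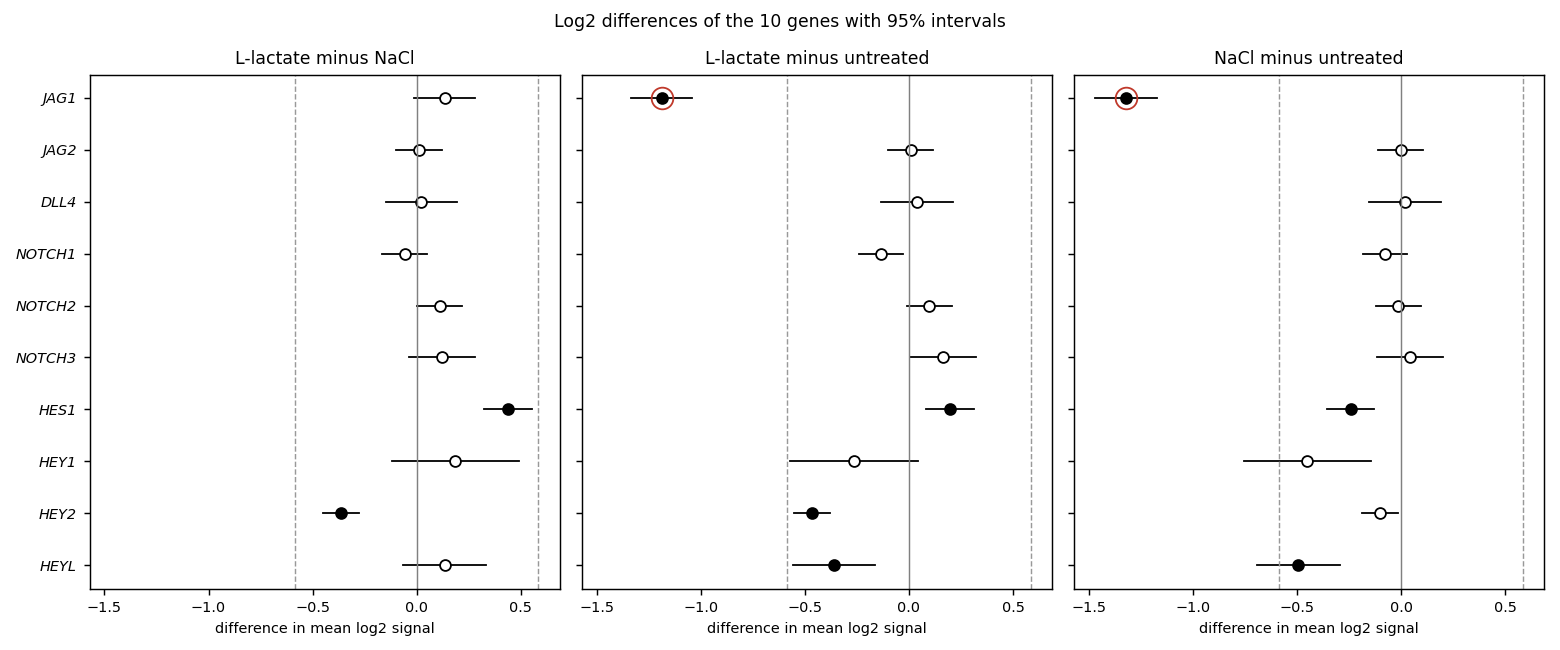
Difference in mean log2 signal (horizontal axes) of each gene in the 3 comparisons, with 95% intervals of the limma fit (n = 5 arrays per group). Filled points have an adjusted p under 0.05, ringed points also exceed a 1.5-fold change (dashed lines at 0.58 in either direction). JAG1 is ringed in both comparisons with untreated cells, and no gene is ringed between L-lactate and NaCl.

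The target genes did not move together. HES1 rose with L-lactate and fell with NaCl, HEY2 fell with L-lactate, and HEYL fell with both salts. In none of these cases did the change reach 1.5-fold.

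HES1 codes for a repressor of the basic helix-loop-helix family and is a direct target of Notch receptors in many cell types. Its log2 signal was 6.93, 6.79, 6.86, 6.93 and 7.00 with L-lactate, 6.54, 6.39, 6.48, 6.39 and 6.50 with NaCl and 6.80, 6.78, 6.60, 6.59 and 6.76 in untreated GC. All L-lactate arrays lay above all NaCl arrays, all NaCl arrays lay below all untreated arrays, and the lowest L-lactate array just overlapped the highest untreated array. HES1 averaged 6.90 ± 0.08 with L-lactate, 6.46 ± 0.07 with NaCl and 6.71 ± 0.10 in untreated GC (SD, n = 5 each). It was higher by 0.44 in L-lactate than in NaCl treated GC (SE 0.05, 95% interval 0.33 to 0.56, adjusted p = 2.1e-05 by limma), which is 1.36-fold and leaves the fold threshold outside the interval. Against untreated GC, HES1 rose by 0.20 with L-lactate (SE 0.05, adjusted p = 0.012) and fell by 0.24 with NaCl (SE 0.05, adjusted p = 0.0069), so that the difference between the salts is made up of changes to either side of the untreated level.

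HEY2 codes for a related repressor of the HEY family. It read 8.57, 8.50, 8.64, 8.53 and 8.52 on the L-lactate arrays, 8.94, 8.93, 8.90, 8.87 and 8.92 on the NaCl arrays and 9.11, 9.05, 9.00, 8.89 and 9.03 on the untreated arrays. The highest L-lactate array was 0.23 below the lowest NaCl array and 0.26 below the lowest untreated array, and NaCl and untreated arrays overlapped. HEY2 averaged 8.55 ± 0.05 with L-lactate, 8.91 ± 0.03 with NaCl and 9.02 ± 0.08 in untreated GC (SD, n = 5 each). It fell by 0.36 with L-lactate against NaCl (SE 0.04, 95% interval -0.45 to -0.28, adjusted p = 7.9e-06 by limma) and by 0.46 against untreated GC (SE 0.04, 95% interval -0.55 to -0.38, adjusted p = 4.2e-07), 1.28-fold and 1.38-fold. NaCl treated GC differed from untreated GC by -0.10 (SE 0.04, adjusted p = 0.13). Without untreated replicate 4 this difference was -0.13 (adjusted p = 0.029), and without untreated replicate 1 it was -0.080 (adjusted p = 0.26). Among the clusters with a mean signal of at least 5 its adjusted p was 0.049, and with median centring it was 0.25.

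Many granulosa markers also differed between the salts, in both directions. With L-lactate against NaCl, 8 of the 13 fell (FOXL2, AMH, INHA, INHBA, FST, FSHR, CYP19A1 and AMHR2), where 11.5% of all clusters fell. INHBB rose by 0.43 (adjusted p = 5.2e-05 by limma) and CYP11A1 by 0.32 (adjusted p = 1.5e-06), where 10.7% of all clusters rose. HSD17B1, NR5A2 and GATA4 passed no test. The mean over the 13 genes was 8.47 to 8.57 on the L-lactate, 8.76 to 8.88 on the NaCl and 8.62 to 8.70 on the untreated arrays, without overlap between the groups. CYP19A1, the aromatase of estradiol synthesis and the marker with the largest decrease, averaged 7.75 ± 0.15 with L-lactate, 8.97 ± 0.04 with NaCl and 8.51 ± 0.08 in untreated GC (SD, n = 5 each). In the mean of the list NaCl arrays were above untreated arrays. Against untreated GC, 7 of the 13 fell and 4 rose with L-lactate, where 13.7% of all clusters fell and 13.3% rose. Under NaCl 8 rose and 1 fell, where 6.13% of all clusters rose and 5.81% fell. The part of the granulosa state in the HEY2 and HES1 differences was not tested.

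HEYL, a further HEY gene, was lower after both salts, as JAG1 was. Its signal was 4.70, 4.67, 4.87, 4.86 and 4.91 with L-lactate, 4.68, 4.73, 4.36, 4.69 and 4.89 with NaCl and 5.20, 5.27, 5.01, 5.34 and 5.00 in untreated GC. No array of either salt reached the untreated range, with gaps of 0.09 for L-lactate and 0.11 for NaCl, and the arrays of both salts overlapped. HEYL averaged 4.80 ± 0.11 with L-lactate, 4.67 ± 0.19 with NaCl and 5.16 ± 0.16 in untreated GC (SD, n = 5 each). It fell by 0.36 with L-lactate (SE 0.09, adjusted p = 0.0084 by limma) and by 0.49 with NaCl (SE 0.09, adjusted p = 0.0022) against untreated GC, and L-lactate and NaCl treated GC differed by 0.13 (95% interval -0.07 to 0.33, adjusted p = 0.38), or by 0.056 (adjusted p = 0.72) without NaCl replicate 3. The intervals against untreated GC, -0.56 to -0.16 with L-lactate and -0.69 to -0.29 with NaCl, are wider than those of JAG1.

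HEY1 passed no test in the fit over all arrays, although its L-lactate and untreated arrays did not overlap. Its signal was 3.35, 3.31, 3.36, 3.29 and 3.28 with L-lactate, 3.46, 3.49, 2.73, 3.31 and 2.67 with NaCl and 3.61, 3.58, 3.79, 3.46 and 3.46 in untreated GC. NaCl replicates 3 and 5 stood well below the other 13 arrays, and the SD of the NaCl arrays was 0.40, against 0.03 with L-lactate and 0.14 in untreated GC. The difference between L-lactate treated and untreated GC was -0.27 (SE 0.14, adjusted p = 0.21 by limma), and with only the 10 arrays of these groups in the fit, which leaves the NaCl arrays out of the estimate of spread, its adjusted p was 0.0082. The difference between NaCl treated and untreated GC was -0.45 (SE 0.14, adjusted p = 0.055). Without NaCl replicate 1 it was -0.53 (adjusted p = 0.027), and without NaCl replicate 2 it was -0.54 (adjusted p = 0.021). Without 1 of the low arrays it was smaller, -0.35 (adjusted p = 0.14) without NaCl replicate 3 and -0.34 (adjusted p = 0.12) without NaCl replicate 5. Between L-lactate and NaCl treated GC it was 0.19 (95% interval -0.12 to 0.49, adjusted p = 0.44), and it was 0.085 without NaCl replicate 3 and 0.071 without NaCl replicate 5.

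The counts of the 10 genes stand beside those of all 26773 clusters. Between L-lactate and NaCl treated GC, 0 of 10 genes were differentially expressed, where 1.89% of all clusters were (1.28% higher and 0.601% lower), and 2 of 10, HES1 and HEY2, had an adjusted p under 0.05, where 22.2% of all clusters had. An unadjusted p under 0.05 was found for 3 of 10 (NOTCH2 besides these), where 31.0% of all clusters had one. The share of genes that changed between the salts was thus close to that of the array. Between L-lactate treated and untreated GC, JAG1 was differentially expressed (1 of 10, and 3.27% of all clusters, 1.93% higher and 1.33% lower), and 4 of 10, JAG1, HES1, HEY2 and HEYL, had an adjusted p under 0.05 (27.1% of all clusters), while 6 of 10 had an unadjusted p under 0.05 (35.7% of all clusters). Between NaCl treated and untreated GC, JAG1 was again the 1 called (1.15% of all clusters, 0.403% higher and 0.743% lower), and 3 of 10, JAG1, HES1 and HEYL, had an adjusted p under 0.05 (11.9% of all clusters), while 5 of 10 had an unadjusted p under 0.05 (23.2% of all clusters).

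The groups did not overlap in 2 of the 10 genes for L-lactate against NaCl (19.1% of all clusters), in 4 for L-lactate against untreated (22.4%) and in 3 for NaCl against untreated (11.0%). HEY1 is among the 4 and HES1 is not, the reverse of what the adjusted p gives. The median difference of the 10 genes was 0.12 for L-lactate against NaCl, -0.06 for L-lactate against untreated and -0.09 for NaCl against untreated. Over all clusters the medians were -0.01, -0.02 and 0.0016 in the same order. The difference was above 0 in 8, 5 and 2 of the 10 genes.

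Beyond these genes, 52 of 58 others of the Notch pathway had a cluster of their own, and few changed by much. FBXW7 was the only one called differentially expressed in any comparison. It was called between L-lactate treated and untreated GC, which is 1.92% of the 52 genes, beside 3.27% of all clusters. None was called between L-lactate and NaCl or between NaCl and untreated GC, beside 1.89% and 1.15% of all clusters. Between L-lactate and NaCl treated GC, 5 of 52 rose and 7 fell, with a median difference of -0.02, where 10.7% of all clusters rose and 11.5% fell. Between L-lactate treated and untreated GC, 8 rose and 9 fell (median -0.04), where 13.3% of all clusters rose and 13.7% fell. Between NaCl treated and untreated GC, 4 rose and 6 fell (median -0.02), where 6.13% of all clusters rose and 5.81% fell. These are 23.1%, 32.7% and 19.2% of the 52 genes, beside 22.2%, 27.1% and 11.9% of all clusters.

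FBXW7 codes for the substrate-binding part of a ubiquitin ligase that marks the Notch intracellular domain, and also MYC and cyclin E, for degradation. It averaged 5.32 ± 0.04 with L-lactate, 5.61 ± 0.09 with NaCl and 6.15 ± 0.07 in untreated GC (SD, n = 5 each). The arrays ranged from 5.26 to 5.36 with L-lactate, from 5.51 to 5.74 with NaCl and from 6.04 to 6.22 in untreated GC, and no groups overlapped. FBXW7 fell by 0.83 with L-lactate against untreated GC (SE 0.04, adjusted p = 3.1e-09 by limma), which is 1.78-fold, and by 0.54 with NaCl (SE 0.04, adjusted p = 1.3e-06), which is 1.45-fold. It also fell by 0.29 with L-lactate against NaCl (adjusted p = 1.8e-04).

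**Figure D3:**
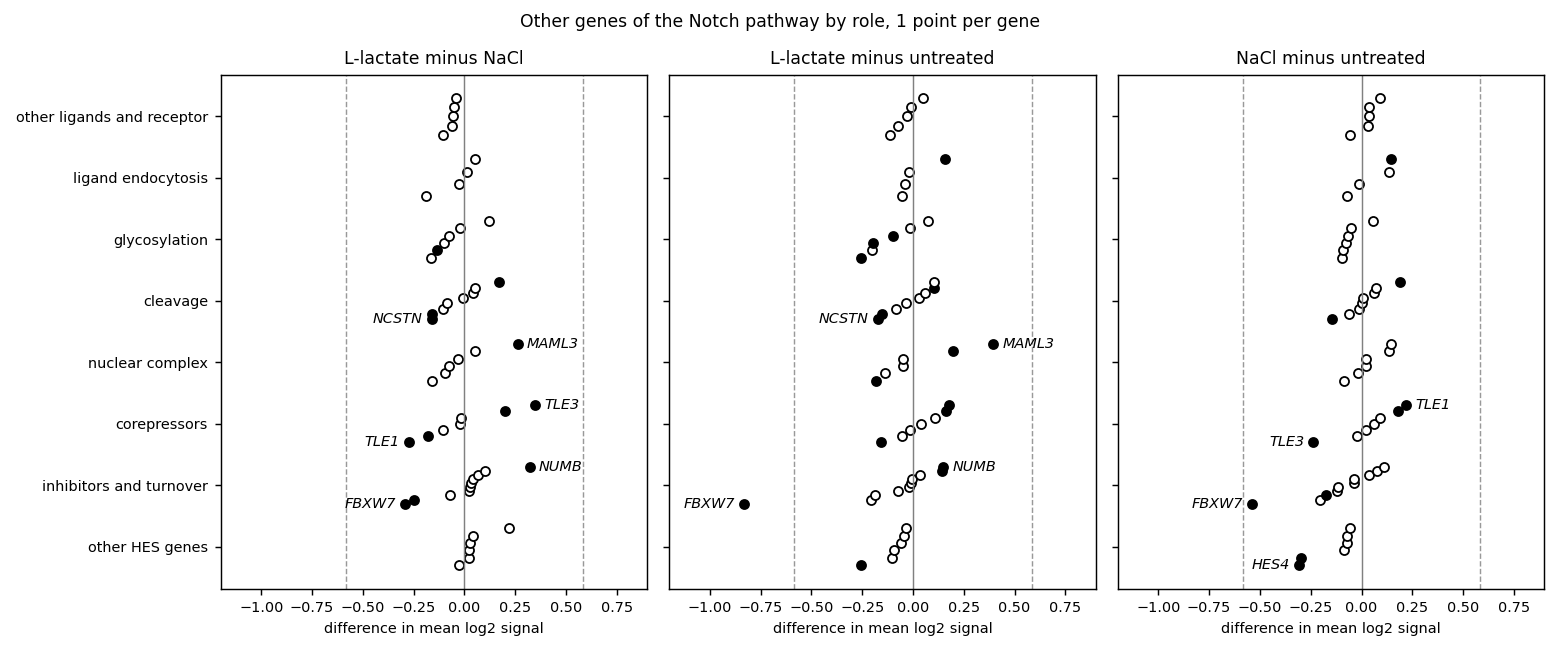
Difference in mean log2 signal (horizontal axes) of 52 other Notch pathway genes, grouped by role, in the 3 comparisons, with 1 point per gene, filled where the adjusted p is under 0.05, and dashed lines at a 1.5-fold change. FBXW7 lies beyond the line for L-lactate against untreated cells at -0.83, and the other points lie within the lines in all panels.

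Of the central parts of the pathway, RBPJ and ADAM10 passed no test and ADAM17 fell with both salts. RBPJ, the DNA-binding factor, averaged 8.63 ± 0.04 with L-lactate, 8.70 ± 0.02 with NaCl and 8.68 ± 0.05 in untreated GC (SD, n = 5 each), and its adjusted p was between 0.12 and 0.72 in the 3 comparisons. ADAM10, a protease that makes the first cut of the bound receptor, averaged 8.82 ± 0.05, 8.91 ± 0.06 and 8.91 ± 0.03 in the same order, with adjusted p from 0.086 to 0.99. Its relative ADAM17 was lower with both salts, at 8.00 ± 0.05 with L-lactate and 8.01 ± 0.04 with NaCl, against 8.15 ± 0.02 in untreated GC. The decrease of ADAM17 was small, 0.15 with L-lactate (adjusted p = 0.0015) and 0.14 with NaCl (adjusted p = 0.0059), but no salt-treated array reached the untreated range of 8.13 to 8.18.

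NRARP, a feedback inhibitor that Notch itself switches on, averaged 5.23 ± 0.17 with L-lactate, 5.13 ± 0.14 with NaCl and 5.25 ± 0.10 in untreated GC (SD, n = 5 each, adjusted p from 0.44 to 0.91 by limma). LFNG, a glycosyltransferase that tunes which ligand a receptor answers to, averaged 4.88 ± 0.08, 4.96 ± 0.06 and 4.90 ± 0.09 in the same order (adjusted p from 0.37 to 0.86). NOTCH4, a receptor known from endothelium, averaged 4.34 ± 0.06, 4.40 ± 0.06 and 4.37 ± 0.09 (adjusted p from 0.43 to 0.74). None of these 3 genes passed the test in any comparison. DLL1, DLL3, DLK1 and DLK2, the other measured ligands and ligand-like genes, were named after their values had been seen and passed none either.

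The genes of this paragraph were chosen after their values had been seen. NUMB, an adaptor that counteracts Notch, averaged 8.08 ± 0.04 with L-lactate, 7.76 ± 0.07 with NaCl and 7.93 ± 0.04 in untreated GC (SD, n = 5 each). It rose by 0.32 with L-lactate against NaCl (adjusted p = 1.1e-05 by limma), rose by 0.15 with L-lactate against untreated GC (adjusted p = 0.0067) and fell by 0.17 with NaCl (adjusted p = 0.0052). Its order of group means was that of HES1. TLE3, a Groucho corepressor that HES and HEY proteins recruit, had the same order, with 6.16 ± 0.03, 5.81 ± 0.12 and 6.05 ± 0.02, although its difference of 0.11 between L-lactate treated and untreated GC had an adjusted p of 0.12. TLE1, of the same family, went the other way between the salts and was lower by 0.27 with L-lactate than with NaCl (adjusted p = 1.2e-04). MAML3, a Mastermind coactivator, rose with L-lactate by 0.26 against NaCl (adjusted p = 0.0024) and by 0.40 against untreated GC (adjusted p = 5.0e-05). NCSTN, the nicastrin subunit of gamma-secretase, was lower with L-lactate by 0.16 against NaCl (adjusted p = 7.2e-04) and by 0.17 against untreated GC (adjusted p = 2.7e-04). APH1B, another subunit, was higher with L-lactate than with NaCl by 0.17 (adjusted p = 0.021). HES4, another HES gene, fell by 0.31 with NaCl against untreated GC (adjusted p = 0.014) and HES7 by 0.30 (adjusted p = 0.047). HES7 also fell with L-lactate against untreated GC, by 0.26 (adjusted p = 0.0495).

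**Figure D4:**
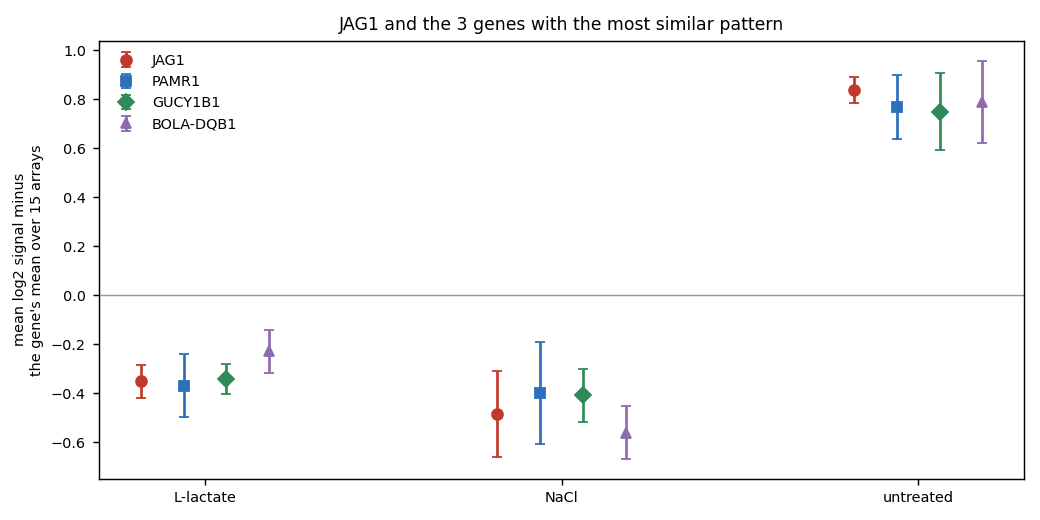
Group means of JAG1, PAMR1, GUCY1B1 and BOLA-DQB1 as log2 signal minus each gene's own mean over 15 arrays (vertical axis), with bars of 1 SD (n = 5 arrays per group). All 4 genes lie below 0 with L-lactate and with NaCl and above 0 in untreated cells. PAMR1, GUCY1B1 and BOLA-DQB1 were chosen for their likeness to JAG1.

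Genes with a pattern like that of JAG1 were sought among the 18456 other clusters with a single symbol. The measure was the root mean square difference over the 15 arrays after each cluster had been centred on its own mean. The closest were PAMR1 with 0.11, GUCY1B1 with 0.13 and BOLA-DQB1 with 0.14, where the median cluster differed from JAG1 by 0.61. PAMR1, which codes for a secreted protein with a peptidase-like domain, averaged 4.70 ± 0.13 with L-lactate, 4.67 ± 0.21 with NaCl and 5.84 ± 0.13 in untreated GC (SD, n = 5 each). GUCY1B1, a subunit of the nitric oxide receptor guanylate cyclase, averaged 6.57 ± 0.06, 6.50 ± 0.11 and 7.65 ± 0.16 in the same order. BOLA-DQB1, a class II major histocompatibility gene with closely related copies that probes may not tell apart, averaged 8.37 ± 0.09, 8.04 ± 0.11 and 9.38 ± 0.17. For each of the 3 genes, no array of either salt reached the untreated range. They were chosen for their likeness to JAG1, so this follows largely from the choice and is no separate result.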

How the data were processed

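RNA of 15 cultures was hybridized to 15 arrays. The authors processed the scans with the Affymetrix Expression Console (1.4.1.46), which reduced background, normalized the arrays and summarized probes by RMA, so that each transcript cluster has a log2 signal per array. These log2 values were used as deposited, with array medians from 4.52 to 4.60. Scanner files and scan dates were not analysed here, so batches of arrays could not be tested. Precision is limited by the number of arrays. The values of 3 of the 10 genes (NOTCH1, JAG2 and DLL4) recur exactly on more than 1 array, as they do in 37.2% of all clusters.

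Of 26773 clusters, 18457 have 1 gene symbol in the platform annotation. A gene of a list with several clusters was counted by the cluster of highest mean signal. The build of the annotation is not given in the sources used here, so no coordinates are given.

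All comparisons come from limma 3.58.1 (R 4.3.3), fitted with 1 coefficient per group over 15 arrays and no replicate block, after a test on simulated data. Figures were drawn with matplotlib 3.10.9 and tables made with pandas 2.3.3 under Python 3.11.15. The genes and lists were chosen with earlier results of these data known. The rule for named genes takes the 10 genes, other pathway genes that were called (FBXW7), 6 further ones set by name (LFNG, RBPJ, ADAM10, ADAM17, NRARP and NOTCH4), and the 3 nearest patterns to a called gene. Outside this rule, NUMB, TLE1, TLE3, MAML3, NCSTN, APH1B, HES4, HES7, DLL1, DLL3, DLK1 and DLK2 were named after their values were seen, and marker genes are named as a check. Replicate numbers are shared by the groups, but the deviations of arrays with equal numbers did not correlate (r from -0.07 to 0.07 over 15 pairs, 0 above 0.1), so they were not taken as pairs. Alternatives were a fit of the 10 arrays compared, an unmoderated ANOVA of the same 10 arrays, the replicate block and each array left out. Further alternatives were a signal minimum of 5, repeated quantile normalization, median centring and an intensity trend. The study's methods name ANOVA but not the groups it held.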

Additional observations from a re-analysis of the deposited data

How the results depend on the processing

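The call of JAG1 as differentially expressed against untreated cells, the absence of any such call of a Notch gene between L-lactate and NaCl, and the adjusted p under 0.05 of HES1 and HEY2 between the salts, of JAG1, HES1 and HEYL with either salt against untreated cells and of HEY2 with L-lactate against untreated cells held under all alternatives that include these genes. The number of other pathway genes called stayed at 0, 1 and 0 in the 3 comparisons. The minimum on signal leaves out HEYL, HEY1, NOTCH1, NOTCH3, JAG2 and DLL4. With it, the number of differentially expressed clusters between NaCl treated and untreated cells was 199 instead of 307, since fewer clusters were tested.

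With the replicate number as a block, 507 clusters were differentially expressed between L-lactate and NaCl treated cells, 873 between L-lactate treated and untreated and 302 between NaCl treated and untreated cells, and the block changed no call of the 10 genes besides the adjusted p of NOTCH1 against untreated cells (0.048).

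Directions turned only for differences close to 0. Leaving out single arrays gave ranges of -0.037 to 0.036 for JAG2 and -0.0088 to 0.059 for DLL4 between L-lactate and NaCl, and of -0.040 to 0.033 for JAG2 and -0.041 to 0.090 for DLL4 between L-lactate treated and untreated cells. Between NaCl treated and untreated cells they were -0.031 to 0.023 for NOTCH2, -0.0045 to 0.085 for NOTCH3, -0.022 to 0.019 for JAG2 and -0.063 to 0.068 for DLL4. There, NOTCH2 was 0.00069 with median centring, and JAG2 was 0.011 with median centring and 0.011 with repeated quantile normalization. The cause was not tested. HEY1 had an adjusted p of 0.016 between L-lactate treated and untreated cells by the unmoderated ANOVA, which also leaves the NaCl arrays out. Between NaCl treated and untreated cells the adjusted p of HEY1 was 0.041 with an intensity trend. Among the alternatives that leave out no single array, the adjusted p of HEY1 reached 0.28 and 0.21 in these comparisons.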
